A study of Zea mays with 10 samples.

Results

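In the part of the study's annotation table held here, 38 probe sets of 29 genes on the maize array were named as ribosomal proteins or translation factors. Of these, 35 probe sets of 28 genes had a deposited signal of 50 or more on 3 or more arrays. The array holds 17621 probe sets other than controls, of which 12512 passed the same minimum. Members were taken from the study's annotation table, by a function text, transferred from Arabidopsis, that names a ribosomal protein, the ribosome, or a translation initiation or elongation factor, and the gene names used below are those of the Arabidopsis match. The table was held in part, as 1785 of its 11247 rows, and the held rows list probe sets marked as cycling first. The study set that mark on these same hybridizations, and 19 of the 38 members (16 of the 35 that passed) carry it. The 24-h values of the members are therefore a description and are not independent evidence of rhythm.

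The aerial tissue (shoot and leaf) of B73 seedlings, the inbred line of the maize reference genome, was followed in constant light. Seedlings grew for 7 days under 12 h light and 12 h dark and were then kept in continuous light, with no other treatment or genotype. For each array, 3 replicates of 5 seedlings were pooled before labelling. The 10 arrays fall at ZT0, ZT4 and ZT8 and then at every 4 h from ZT20 to ZT44, where ZT counts the hours after dawn, and ZT12 and ZT16 were not used here. ZT0 was harvested at the end of the last dark period, and every later sample came from constant light. Hours in constant light and age of the seedling therefore increase together. Time of day recurs, and ZT0, ZT4, ZT8 and ZT20 have a counterpart at ZT24, ZT28, ZT32 and ZT44. With 1 array per time point there is no spread between replicates. Every standard error (SE) and p-value below measures how far single arrays lay from a fitted model. That model is a curve, a line or a step over time, or, between the days, 1 difference shared by pairs of arrays.

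A ribosome reads messenger RNA with its small subunit (40S in the cytosol) and joins amino acids with its large subunit (60S). Initiation factors bring the first tRNA and the messenger to the small subunit, and elongation factors deliver the following tRNAs. Plant cells also keep bacterial-type ribosomes in plastids and mitochondria, which use factors such as EF-Tu. Genes of cytosolic ribosomal proteins are known for high and coordinated expression in growing and dividing tissue.

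The 35 members comprised 4 probe sets for 40S proteins, 8 for 60S proteins, 16 for initiation factors, 2 for the elongation factor EF-Tu and 5 for ribosomal proteins of organelles or of unstated place. By their text, 27 were cytosolic, 4 organellar and 4 not placed. The filter was passed narrowly by RPS23B, whose deposited signal reached 50 on 5 arrays, and by RPL36A, which reached it on 8. The 3 members outside it stayed under 50 on all arrays, with normalized signals of at most 37.1 for a second RPS8B probe set, 42.2 for RPS7A and 30.9 for a second probe set of an RNA-binding initiation factor, and these were not tested. Signals below are MAS5 intensities after quantile normalization, and they are compared within a probe set only.

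Every array was similar in overall brightness. The median deposited signal lay between 187.6 and 213.5, and a signal of 50 was reached by 68.9% to 70.0% of probe sets. Over all 12512 probe sets, 403 had fallen and 417 had risen along the course at an adjusted p of at most 0.05, a share of 50.9% rising. The share was 60.2% with the deposited values (459 rising, 304 falling) and 36.1% when arrays were only centred on their medians (311 rising, 551 falling). As the tissue was bulk, fewer cells of a type and less RNA per cell cannot be told apart in any of the results that follow.

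**Figure D1:**
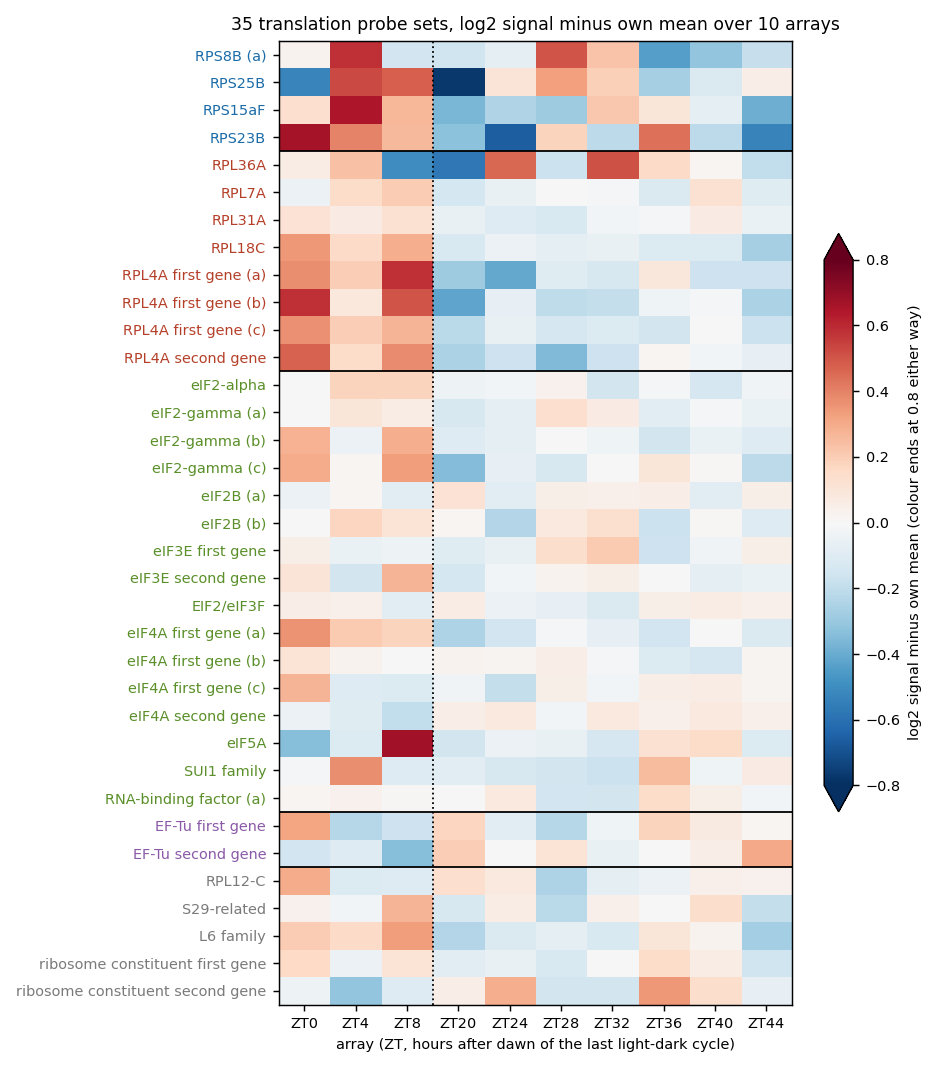
Each row is 1 of the 35 members and each column 1 array in time order, coloured by the log2 signal minus the mean of that probe set over the 10 arrays; row labels are coloured by class and the dotted line marks the gap between ZT8 and ZT20. The 4 RPL4A probe sets and RPL18C are red on the first 3 arrays and mostly pale or blue on the 7 later ones, while most initiation factor rows are pale throughout.

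Among the members, most probe sets for 60S proteins had lower signals on the arrays from ZT20 on than on the first 3 arrays. RPL18C (gene GRMZM2G104025), a protein of the large subunit, had signals of 4195, 3661 and 4038 at ZT0, ZT4 and ZT8, then 3033, 3194, 3121, 3162, 3060, 3050 and 2742 from ZT20 to ZT44. All 7 later arrays lay below all 3 early ones. RPL18C fell by 0.30 in log2 per 24 h (SE 0.06), as a straight-line change fitted beside a 24-h cosine and sine with limma, at an adjusted p of 0.029 over all 12512 probe sets. It was the only member called for this change. Among all probe sets tested, 3.22% were called as falling and 3.33% as rising, so a single falling member of 35 and no rising one is near that background. The call did not survive the loss of any of ZT0, ZT8, ZT24, ZT28 or ZT32, with adjusted p up to 0.19, and the estimate then lay between −0.35 and −0.24 over all single arrays left out.

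RPL4, which lines the tunnel through which the new protein leaves the large subunit, was represented by 4 probe sets of 2 genes. For the first gene (GRMZM2G018197), the probe set (a) had 945, 839 and 1096 at ZT0, ZT4 and ZT8, then 599, 550, 684, 670, 780, 652 and 652 from ZT20 to ZT44. Its probe set (b) had 1764, 1246 and 1663 on the first 3 arrays, then 875, 1122, 1022, 1031, 1149, 1164 and 987. Its probe set (c) had 3247, 2891 and 3039, then 2167, 2422, 2293, 2340, 2274, 2527 and 2232. In each of these, the 7 later arrays lay below the first 3 without overlap. Probe set (b) is of a type that can cross-hybridize and may share probes with (a), so these are not separate measurements. The second gene (GRMZM2G068952) had 786, 628 and 737, then 475, 505, 444, 504, 573, 558 and 541, again with no overlap. The linear change of the 4 probe sets was −0.41, −0.43, −0.30 and −0.41 log2 per 24 h, with adjusted p of 0.068, 0.10, 0.068 and 0.069 in limma, none of which passed the threshold.

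The lower level of RPL18C and of the RPL4A probe sets was already present at ZT20, the first array after the gap. With a single step between ZT8 and ZT20 in place of the line, a choice made after the data were seen, 10 members were called, of which 9 were lower after the step. Among all probe sets tested, 9.65% were called lower and 9.19% higher in that fit. The 9 were RPL31A, RPL18C, the 4 RPL4A probe sets, the 40S protein RPS15aF, 1 probe set of eIF4A and the L6 family protein; the member called higher was the second EF-Tu gene. The RPL4A steps ran from −0.60 to −0.41 log2, with adjusted p from 0.004 to 0.015 in limma. Within the 7 arrays from ZT20 on, the linear change of the RPL4A probe sets was 0.13, 0.15, 0.05 and 0.14, each with an adjusted p of 0.999 in limma. Most other members had that same adjusted p and none was called. With so few arrays, that fit cannot show that the level stayed flat. Where the first 3 arrays and the 7 later ones are compared, the first 3 hold only the daytime part of the cycle.

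The same clock times can be compared across the days without that limit. RPL18C was lower at ZT24 than at ZT0 (3194 against 4195), at ZT28 than at ZT4 (3121 against 3661) and at ZT32 than at ZT8 (3162 against 4038). It was also lower at ZT44 than at ZT20 (2742 against 3033). All 4 RPL4A probe sets were lower at each of the first 3 pairs of times, but higher at ZT44 than at ZT20. Of the 8 probe sets for 60S proteins, 7 were lower in each of those 3 pairs, as were 16 of all 35 members, against 24.7% of all probe sets tested. Probe sets of the same gene, as for RPL4A, are counted singly here. At ZT44 against ZT20, only 1 of the 8 was lower, as were 16 of the 35 members and 6338 of the 12512 probe sets tested. The mean of second day minus first day, over 4 pairs of arrays, was −0.28 ± 0.07 (SE) log2 for RPL18C and −0.42 ± 0.15, −0.36 ± 0.15, −0.27 ± 0.09 and −0.38 ± 0.14 for the RPL4A probe sets. No member passed the threshold in this comparison, in which 0% of all probe sets passed, and the lowest adjusted p of a member was 0.14 with limma, for RPL18C. At an unadjusted p of at most 0.05 it named 7 members and 19.5% of all probe sets.

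The other 60S proteins moved less. RPL31A, which sits near the exit of the protein tunnel, had signals between 2799 and 3186 on the 7 later arrays and between 3197 and 3315 on the first 3, a small difference with no overlap. Its linear change was −0.14 ± 0.05 (SE), with an adjusted p of 0.14 in limma. RPL7A ranged from 468 to 594 over all arrays, with a change of −0.08 ± 0.08. RPL36A, close to the detection minimum, had 60.8, 68.6 and 41.2 at ZT0, ZT4 and ZT8, then 39.2, 79.9, 51.6, 82.7, 64.8, 58.9 and 50.8. It swung by more than its trend, and its change of 0.25 ± 0.24 had an adjusted p of 0.52 in limma. The median linear change of the 8 probe sets for 60S proteins was −0.30, against 0.0030 for all probe sets tested. Of these 8, 7 were below 0 under quantile normalization, with the deposited values and with median centring alike. Both the median and the count take the RPL4A probe sets singly, several of them of the same gene. The change of the others was −0.30 for RPL18C, −0.14 for RPL31A, −0.08 for RPL7A and 0.25 for RPL36A.

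**Figure D2:**
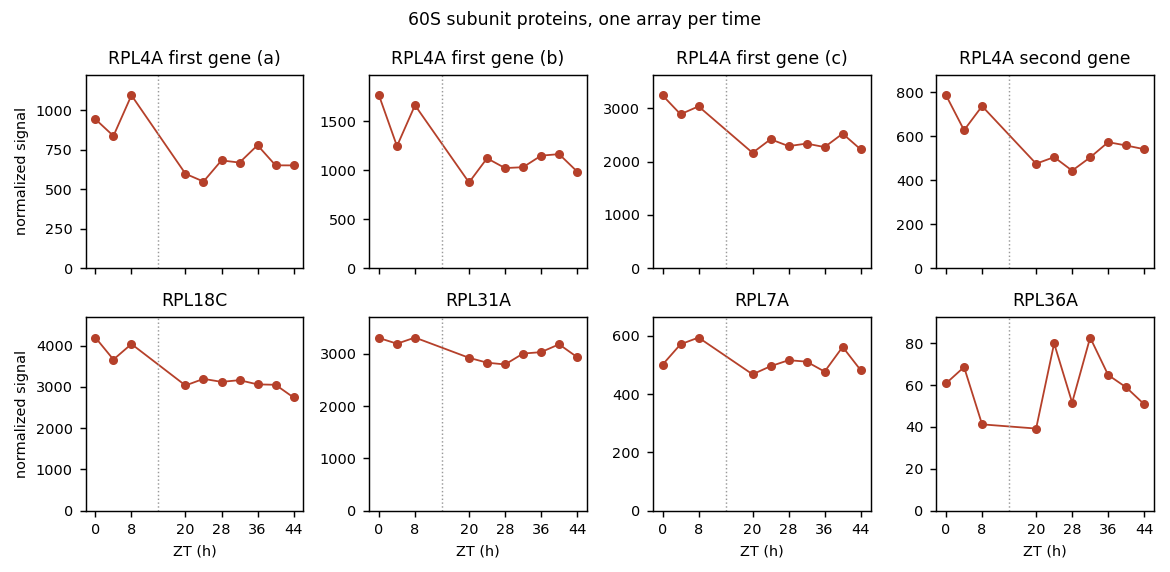
Normalized signal (linear axis from 0) against ZT in hours for the 8 probe sets of 60S proteins, 1 point per array, with a dotted line in the gap between ZT8 and ZT20. The 4 RPL4A probe sets, RPL18C and RPL31A have their 3 highest points at ZT0, ZT4 and ZT8, and RPL36A, at signals under 83, does not.

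Across members, 8 had all 7 later arrays below the first 3, against 11.5% of all probe sets, and 2 had them all above, against 10.1%. With the deposited values the counts were 8 below and 0 above, and with median centring 10 and 0, where 9.62% and 12.2% of all probe sets lay below. Of the 8 after quantile normalization, 6 were probe sets for 60S proteins, including every RPL4A probe set. These 6 stayed below under both other scalings. The other two were an eIF4A probe set, which also stayed below, and the L6 family protein, whose deposited signals overlapped. Separation under other scalings was examined after the data were seen. The linear change was below 0 for 26 of 35 members, whereas it was below 0 for 49.5% of all probe sets. An unadjusted p of at most 0.05 with a fall was reached by 8 members, against 13.8% of all probe sets. The median change of the 35 members was −0.10 log2 per 24 h. Members without the cycling mark and those with it had alike medians, −0.09 over 19 and −0.11 over 16.

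The largest fitted daily swings belonged to the 40S proteins RPS25B and RPS8B, and all 4 probe sets for 40S proteins carry the cycling mark. RPS25B (GRMZM2G139349), a protein of the small subunit head, had 839, 1747 and 1683 at ZT0, ZT4 and ZT8, then 707, 1300, 1520, 1377, 1005, 1118 and 1253 from ZT20 to ZT44. It was low at ZT20 and at ZT0 and high at ZT4 and ZT8, and from ZT24 on it was highest at ZT28 and lowest at ZT36, over a smaller range. The fitted difference between peak and trough was 1.03 ± 0.30 (SE) log2 with a peak at 5.4 h. RPS8B had 94.3, 138.3 and 83.0, then 82.5, 87.3, 130.5, 107.9, 68.0, 74.1 and 81.2, with its 2 highest values 24 h apart at ZT4 and ZT28. Its fitted amplitude was 0.94 ± 0.26 with a peak at 3.6 h. RPS15aF had 392, 559 and 429, then 278, 302, 294, 416, 383, 339 and 272, highest at ZT4 among the first arrays and at ZT32 among those from ZT20 on, with an amplitude of 0.54 ± 0.18 and a peak at 10.2 h.

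RPS23B, whose protein is part of the decoding centre, had 70.8, 58.7 and 53.4 at ZT0, ZT4 and ZT8, then 35.6, 28.2, 50.6, 38.6, 60.5, 38.6 and 30.8. These signals lie around the detection minimum, and the first 3 were overlapped by ZT36 alone. Its linear change of −0.51 ± 0.23 (SE) was the largest fall of a member and had an adjusted p of 0.18 in limma. RPS25B and RPL36A, at 0.27 ± 0.18 and 0.25 ± 0.24, had the largest estimated increases, with adjusted p of 0.35 and 0.52 in limma. Of the 4 probe sets for 40S proteins, 2 thus had a change above 0 and 2 below it, and none passed the threshold.

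No member passed the threshold for a 24-h curve, and 0% of all probe sets did, with the lowest adjusted p of a member at 0.34 in limma. At an unadjusted p of at most 0.05, 6 members were found: RPS25B, RPS8B, RPS15aF, both EF-Tu genes and RPL12-C. That is 6 of 35, beside 11.1% of all probe sets; 4 of the 6 carry the cycling mark. The median fitted amplitude of the 35 members was 0.27 log2, against 0.23 over all probe sets. It was 0.76 for the 40S proteins, 0.26 for the 60S proteins and 0.16 for the initiation factors. All 4 probe sets for 40S proteins carry the cycling mark, and the median was 0.33 for members with the mark and 0.17 for those without. The class medians therefore cannot be read apart from that mark.

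The EF-Tu genes and RPL12-C had fitted peaks in the subjective night, between 16.6 and 22.5 h. EF-Tu delivers amino acid-carrying tRNAs to the bacterial-type ribosome, and its first gene (GRMZM2G407996) had 1989, 1368 and 1431 at ZT0, ZT4 and ZT8, then 1803, 1503, 1370, 1562, 1808, 1686 and 1616. It was lowest at ZT4 and ZT28, and its fitted peak was at 16.6 h with an amplitude of 0.46 ± 0.17 (SE) log2. RPL12-C (GRMZM2G360021), the stalk protein of the plastid ribosome, had 4945, 3743 and 3755, then 4432, 4249, 3394, 3825, 3903, 4148 and 4120. It too was low at ZT4 and ZT28 and highest at ZT0, with a fitted peak at 18.2 h and an amplitude of 0.36 ± 0.10. Over the 10 arrays of the same RNA pools, the log2 values of these 2 probe sets correlated with r = 0.82, given as a description.

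The second EF-Tu gene (GRMZM2G106061) had a different course. Its signals were 6841, 7079 and 6015 at ZT0, ZT4 and ZT8, then 8722, 7638, 8221, 7311, 7583, 7883 and 9395, so that after quantile normalization all 7 later arrays lay above the first 3, whereas they overlapped with the deposited values and with median centring. Its linear change of 0.23 ± 0.06 (SE) had an adjusted p of 0.058 in limma, and the step of 0.25 ± 0.07 had one of 0.038. With the deposited values the linear change was 0.021 ± 0.081 with an adjusted p of 0.89 in limma, and with arrays centred on their medians only it turned to −0.033. The fitted peak was at 22.5 h with an amplitude of 0.30 ± 0.09, and its r with the first EF-Tu gene was 0.16. A protein related to S29 of the mitochondrial ribosome ranged from 182 to 254, with a linear change of −0.16 ± 0.10.

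Ribosomal proteins of unstated place divided likewise. The L6 family protein (GRMZM2G080608) had 938 at ZT0 and 1031 at ZT8, its highest values, and its ZT4 signal too lay above the highest later one of 875, so the arrays did not overlap after quantile normalization, though they did with the deposited values. It correlated with the RPL4A probe set (a) at r = 0.89. Its linear change was −0.27 ± 0.08 (SE), with an adjusted p of 0.074 in limma. The first gene named only as a structural constituent of the ribosome, which had the lowest fitted amplitude of this class, had 811, 702 and 784, then 684, 695, 666, 729, 803, 756 and 649. It was highest at ZT0 and ZT36 and lowest at ZT44, with an amplitude of 0.29 ± 0.13. The second such gene ranged from 116 to 184, highest at ZT36 and ZT24.

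**Figure D3:**
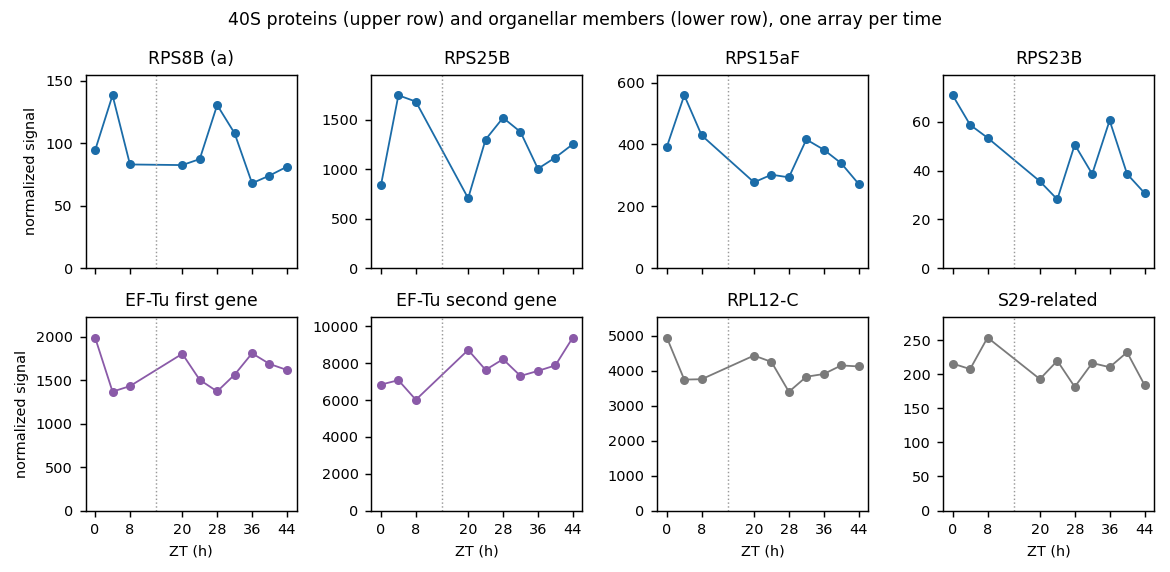
Normalized signal (linear axis from 0) against ZT in hours, 1 point per array, for the 4 probe sets of 40S proteins in the upper row and the 4 organellar members in the lower row. RPS25B and RPS8B are high at ZT4 and again at ZT28, the first EF-Tu gene and RPL12-C are low at both of those times, and the second EF-Tu gene lies above its first 3 points from ZT20 on after quantile normalization, but not with the deposited values or median centring.

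Initiation factors changed little. The median linear change of their 16 probe sets was −0.06 log2 per 24 h, with a range from −0.23 to 0.11, and none passed the threshold or reached an unadjusted p of 0.05. The factor eIF2 brings the first tRNA to the small subunit, and eIF2B recharges eIF2 with GTP. The eIF2B probe set (a) had the lowest fitted amplitude of any member, 0.02 ± 0.14 (SE), with 322, 337 and 315 at ZT0, ZT4 and ZT8, then 362, 313, 344, 343, 345, 313 and 344. The highest of these values was 1.16 times the lowest. The eIF2B probe set (b) ranged from 196 to 260, with a linear change of −0.07 ± 0.09.

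eIF2-alpha, the subunit whose phosphorylation slows initiation in many eukaryotes, had 876, 993 and 992 at ZT0, ZT4 and ZT8, then 855, 863, 898, 792, 867, 799 and 860. It was highest at ZT4 and ZT8, and its linear change was −0.10 ± 0.07 (SE). The probe sets for eIF2-gamma, the subunit that holds GTP and the tRNA, differed from each other. Probe set (c) had a change of −0.23 ± 0.10 and probe set (b) of −0.19 ± 0.09, while probe set (a) had 0.02 ± 0.06, although all 3 are assigned to 1 gene. Correlations between them over the 10 arrays were 0.78 for (b) with (c), 0.39 for (a) with (b) and 0.35 for (a) with (c).

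The helicase eIF4A, which unwinds the leader of a messenger so that the small subunit can scan it, showed the same divergence among 3 probe sets of its first gene (GRMZM2G027995). Probe set (a) had 568, 511 and 500 at ZT0, ZT4 and ZT8, then 373, 398, 438, 423, 398, 443 and 408, with every later array below the first 3. Probe set (b) had 4136, 3908 and 3820, then 3910, 3898, 3979, 3786, 3557, 3486 and 3893, and stayed within a ratio of 1.19. Its arrays overlapped here and with median centring. With the deposited values, every later array of probe set (b) lay below the first 3, narrowly (4013.5 at ZT24 against 4015.5 at ZT8). Probe set (c) had 616, 475 and 473, then 500, 447, 526, 503, 530, 531 and 518, with ZT0 above all others. Their correlations were between 0.14 and 0.39, so the first gene has no single course on this array. Probe set (a) had a linear change of −0.22 ± 0.10 (SE) and an adjusted p of 0.19 in limma. The second eIF4A gene had signals of 3534 to 3789 on the 7 later arrays, against 3124 to 3474 on the first 3, with a change of 0.10 ± 0.06. These ranges did not overlap after quantile normalization, but the arrays overlapped with the deposited values and with median centring.

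eIF5A, a factor that helps the ribosome through stretches of proline, had 633, 742 and 1273 at ZT0, ZT4 and ZT8, then 724, 773, 769, 728, 872, 888 and 742. The value at ZT8 stood above all others and had no counterpart at ZT32, 24 h later. Its fitted amplitude of 0.55 ± 0.23 (SE) was the highest of the initiation factors. The 2 genes for eIF3E, a subunit of the large factor eIF3, ranged from 327 to 425 and from 584 to 778. The gene named EIF2 after Arabidopsis and eIF3 subunit F after rice ranged from 527 to 596. The probe set named for the SUI1 family, a group that includes the start-codon factor eIF1, lay between 69.4 and 101.2, and the RNA-binding factor between 314 and 387.

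**Figure D4:**
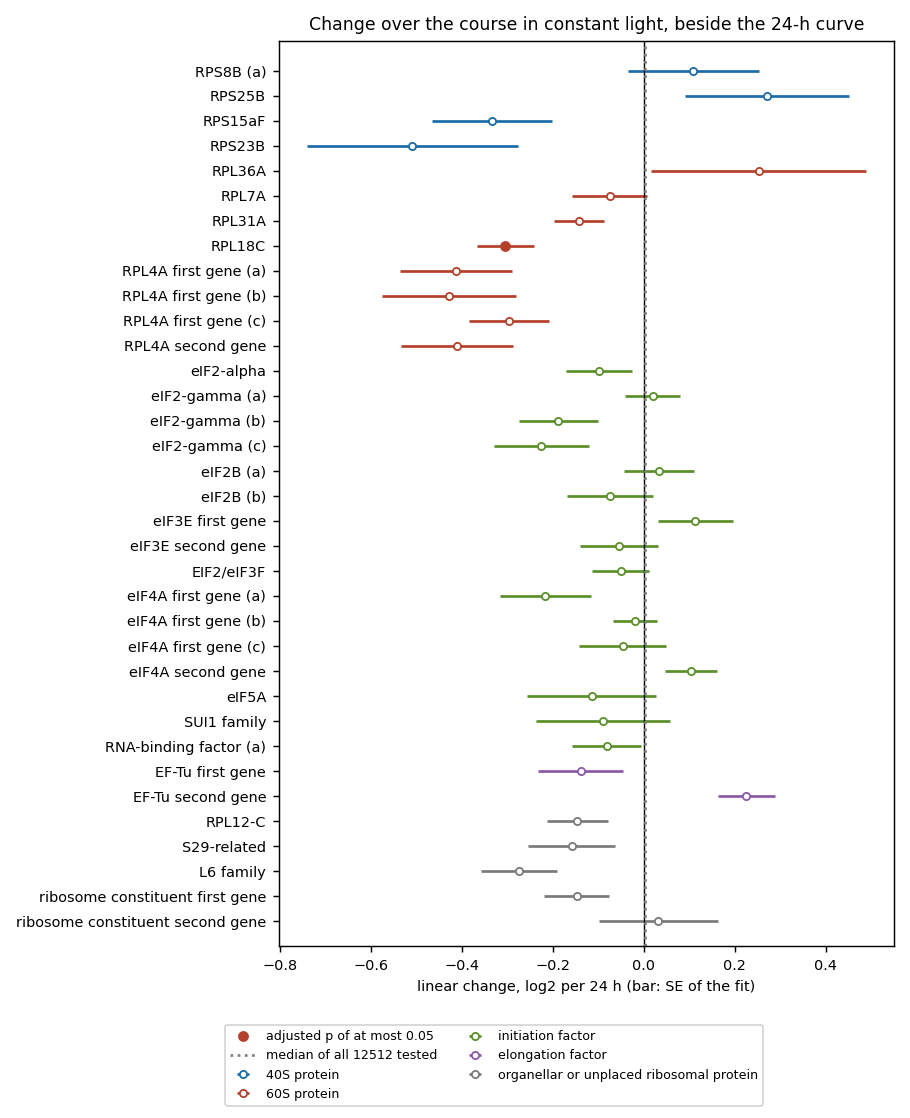
Linear change in log2 per 24 h for each of the 35 members, fitted beside the 24-h cosine and sine; bars are the SE of the fit, colours mark the class, and the filled point is the member with an adjusted p of at most 0.05. RPL18C is the filled point at −0.30, the 4 RPL4A probe sets lie between −0.43 and −0.30, and the initiation factors lie between −0.23 and 0.11.

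The ZT0 array, which alone ends a dark period, was tested for departure from the curve fitted to the other arrays. No member passed the threshold, against 0.783% of all probe sets, and 4 members had an unadjusted p of at most 0.05, against 12.2% of all probe sets. Those 4 were eIF4A probe set (c), the first EF-Tu gene, eIF2-gamma probe set (c) and RPL4A probe set (b), each higher at ZT0 than its curve. The 3 largest estimates above the curve were 0.78 ± 0.41 (SE) log2 for RPS23B, 0.56 ± 0.25 for RPL4A probe set (b) and 0.44 ± 0.14 for eIF4A probe set (c). Their adjusted p were 0.50, 0.40 and 0.22 in limma. The 3 largest below the curve were −0.54 ± 0.33 for RPS25B, −0.41 ± 0.26 for eIF5A and −0.17 ± 0.14 for eIF2-alpha, with adjusted p of 0.58, 0.60 and 0.70 in limma.

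As a description of how the members varied together, each was correlated over the 10 arrays with the mean of the cytosolic ribosomal proteins of other genes. All points come from the same 10 RNA pools and share their normalization. Among ribosomal proteins, r was 0.84 for RPS15aF, 0.82 for RPL18C and between 0.68 and 0.77 for the RPL4A probe sets, but 0.34 for RPS25B, 0.30 for RPS8B and 0.07 for RPL36A. Of the remaining members, eIF4A probe set (a) reached 0.89, the L6 family protein 0.87 and eIF2-gamma probe set (c) 0.83. The second EF-Tu gene had −0.85 and the second eIF4A gene −0.75. RPL18C and RPL4A probe set (c) of the first gene correlated with each other at r = 0.94.

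The platform's own annotation names a further 26 probe sets of ribosomal proteins, 24 of which passed the filter, and this list does not depend on the order of the study's table. The linear change was below 0 for 22 of the 24, with a median of −0.15 log2 per 24 h after quantile normalization. It was below 0 for all 24 with the deposited values and with median centring, with medians of −0.20 and −0.26. On 15 of the 24, the 7 later arrays all lay below the first 3, against 11.5% of all probe sets tested. On 19, each of ZT24, ZT28 and ZT32 lay below ZT0, ZT4 and ZT8, against 24.7% of all probe sets tested. Only 1 was called as falling and none as rising, near the background of 3.22% and 3.33% of all probe sets tested. The called probe set was 1 of 2 for RPL10, a 60S protein, with 6822, 5852 and 7137 at ZT0, ZT4 and ZT8 and at most 5442 later; its change was −0.31 ± 0.07 (SE) with an adjusted p of 0.036 in limma. The 2 probe sets for rpl39, another protein of the exit tunnel, had changes of −0.29 ± 0.08 and −0.37 ± 0.10, with adjusted p of 0.053 and 0.062 in limma. Both genes were thus measured by probe sets that may read the same transcripts. Later arrays all below the first 3 were found on 6 of the 9 probe sets for 40S proteins in this list, on 4 of the 8 for 60S proteins and on 5 of the 7 for acidic proteins of the stalk. These counts include several probe sets of the same gene. The 4 for 60S proteins were those of RPL10 and rpl39, while rpl30, rpL19, RPL27A and rpl29 overlapped. Most of the 6 for 40S proteins were of rps6 and rps6-2. Among the 40S proteins, picked after values were seen, RPS21 had 164, 158 and 174 at ZT0, ZT4 and ZT8, then 79.4, 94.0, 103.9, 94.2, 100.3, 89.1 and 90.9. Its change was −0.53 ± 0.16 (SE) with an adjusted p of 0.067 in limma.

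The other factors of translation that were matched did not share one direction. Apart from the platform-named initiation factors, they came largely from the held rows of the study's table, which list probe sets marked as cycling first. Of 10 platform-named initiation factor probe sets, a list drawn up after values were seen, tif1, whose product is of the eIF1 type, rose by 0.44 ± 0.06 (SE) log2 per 24 h, with an adjusted p of 0.011 in limma. Its signals were 3890, 4004 and 4071 at ZT0, ZT4 and ZT8 and between 5166 and 6444 later. The other 9 were not called, among them eif3 at −0.28 ± 0.08 and the cap-binding factor eIF-4E at −0.23 ± 0.08. None of 14 probe sets for elongation and release factors was called, and their median change was −0.015; the lowest p belonged to 2 probe sets of elongation factor 1B-gamma, at −0.16 ± 0.06 and −0.21 ± 0.09, and 1 of EF1-A, at −0.41 ± 0.18. None of 4 aminoacyl-tRNA synthetases was called either, with a median of 0.04 and a range from −0.07 to 0.12. Of 6 ribosome assembly probe sets none was called, but both for NOP56, a core protein of the particles that modify ribosomal RNA, had all later arrays below the first 3, with changes of −0.26 ± 0.12 and −0.46 ± 0.17. A nucleolar protein-related probe set ran the other way at 0.23 ± 0.07. No probe set for TOR or S6 kinase was matched in the held rows.

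**Figure D5:**
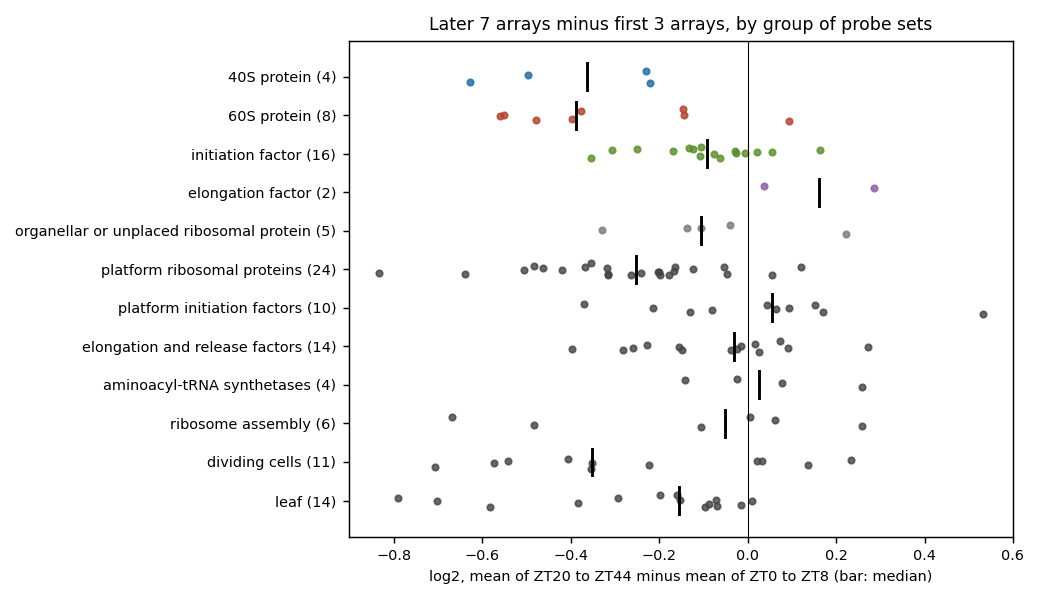
Mean log2 signal of ZT20 to ZT44 minus the mean of ZT0 to ZT8 for each probe set, by class of member (coloured) and by list (dark grey), with the number of probe sets in brackets and the median as a bar. The medians are −0.39 for the 60S proteins, −0.25 for the platform-named ribosomal proteins, −0.09 for the initiation factors and −0.35 for the dividing-cell markers. Probe sets of the same gene, as for RPL4A, are counted singly.

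Markers of other cell states moved over the same arrays. Of 11 probe sets listed by name for dividing cells (cyclins, PCNA and histones), 6 had all later arrays below the first 3, against 11.5% of all probe sets tested. Whether each histone on this list marks dividing cells was not tested. The summed signal of the 11 ran from 7324 to 8529 on the 7 later arrays and from 8712 to 10429 on the first 3. Their linear change was below 0 for 7 and above 0 for 4 (cycD1 0.14, cycD2 0.04, HTA11 0.15 and histone H3.2 0.04), none of which was called. The cyclin cyc3 was called at −0.38 ± 0.09 (SE) with an adjusted p of 0.036 in limma. The dimmest markers of this list were cyc1 (33.9 to 58.6), cyc2 (41.8 to 71.7) and cycD1 (48.2 to 72.2), around the detection minimum of 50. Of 15 leaf markers, 14 passed the filter and 1 lhcb6 probe set stayed at or below a signal of 7.6. All later arrays lay below the first 3 for 6 of the 14, against 11.5% of all probe sets tested. The summed signal of the 15 ran from 103256 to 125189 on the later arrays and from 130334 to 134667 on the first 3. This sum is weighted to the brightest probe sets. Among them, 1 LHB1B2 probe set read 13371.6 at ZT0, ZT4 and ZT8 alike, a value set by its rank in quantile normalization. The 3 called as falling, against 3.22% of all probe sets tested, were all probe sets of lhcb6, an antenna protein gene. The part of either in the lower levels of 60S proteins was not tested. In the labelled leaf tissue, the dimmest of the other leaf markers, also lhcb6, had a signal of at least 2130 on every array.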

How the data were processed

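The authors deposited linear signal intensities, 1 column per time point, which the submitters' processing notes credit to MAS5 (the sources used here do not give its version). From 17734 probe sets, 113 controls were left out, values under 1 (2968) were set to 1, log2 was taken and arrays were quantile normalized with limma 3.58.1 in R 4.3.3, as their medians differed by 0.19 in log2. Probe sets with a deposited signal of 50 or more on 3 or more arrays entered lmFit and eBayes with an intensity trend (6 residual and 4.3 prior degrees of freedom; 3 and 4.2 for the comparison of the days). P-values were adjusted by Benjamini-Hochberg over 12512 probe sets at 0.05. Array number and signal over background limit the precision, as arrays carry no depth. The fits of the 24-h curve, the linear change, the second day minus the first and the ZT0 departure were tested on simulated data. The normalization, the filter, the step fit and the fit from ZT20 on were not.

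Members, lists, tests and alternatives were chosen with earlier results of these data known. Lists of other translation genes and of markers came from gene symbols of the platform or from function texts. The texts were searched only in the 1785 held rows of the study's table, which list probe sets marked as cycling first. Signals on all arrays are given for the highest and lowest amplitude per class, the 3 largest changes and ZT0 departures in each direction, called members and, in the 60S and initiation factor classes, 1 gene with several probe sets (RPL4A, eIF4A); for other lists, up to 3 probe sets with the lowest p. Alternatives were other normalizations, filters, a pseudocount of 32, no trend, other curve terms, periods of 22 and 26 h, and arrays left out. Gene positions, promoters and proteins were not analysed here.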

Additional observations from a re-analysis of the deposited data

How the results depend on the processing

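The count of members at an unadjusted p of at most 0.05 for the 24-h curve, 6 as reported, was 3 with the deposited values, 2 with no linear change, and between 4 and 10 with single arrays left out, 10 of them without ZT0. The count called for the linear change, 1 as reported, was 2 with median centring, 0 without the intensity trend, 2 without cosine and sine, 10 with the step and 0 on the arrays from ZT20 on, the last 2 chosen after the data were seen. It was between 0 and 10 with single arrays left out: 0 without any of ZT0, ZT8, ZT24, ZT28 or ZT32, 10 without ZT20 and 3 without ZT44. The count for second day minus first day was between 0 and 1 with a pair of arrays left out, 1 without ZT20 and ZT44. No alternative gave a member called for ZT0, and the median amplitude stayed between 0.19 and 0.33. The count of members with all 7 later arrays above the first 3, 2 as reported, was 0 with the deposited values and with median centring. Median centring turned the second EF-Tu gene to −0.033 for the linear change and −0.018 between the days, leaving out cosine and sine turned RPS25B to −0.041, and the arrays from ZT20 on turned RPL4A probe sets (a) and (b) to 0.13 and 0.15. The cause was not tested, beyond the fewer arrays in the last case. RPL18C kept its sign in all 19 alternatives for the linear change and lost its call in 7. No paired analysis by replicate number was possible because each time point has a single array. The days were compared with clock time as a block, over 4 pairs of arrays. Precision is limited by 10 arrays and, for RPS23B and RPL36A, by signals near the detection minimum.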

Other observations

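A further 3 probe sets of unknown Arabidopsis function are named as ribosomal protein L18a by the rice text alone, and were looked up after values were seen. None was called for the linear change in limma (median −0.07 log2 per 24 h, range −0.23 to 0.10), none had its 7 later arrays on one side of the first 3, and 1 of them had an unadjusted p of at most 0.05 for the 24-h curve.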
